A study of Homo sapiens with 30 samples.

Results

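H3K27me3 peaks of HEK293T cells upon depletion of LINC00641 (ΔLINC00641) were compared with the peaks of cells that received a negative control antisense oligonucleotide (NC). HEK293T is a line derived from human embryonic kidney and expresses SV40 large T antigen. In both groups the cells were transfected with an antisense oligonucleotide (ASO), a short DNA-like strand that lowers the RNA it pairs with, and chromatin was collected 48 h later, so NC cells had also been transfected. Each group comprised 3 ChIP replicates and 3 input replicates, input being sheared chromatin without immunoprecipitation. The replicates had been merged before peak calling, and each group was therefore represented by 1 list, with no error between replicates and no test of a difference. The members were all peaks of both lists, 102921 in NC and 86099 in ΔLINC00641, which makes 189020 of the 431864 H3K27me3 and H3K9me3 peaks of the series. An NC peak was called lost when no ΔLINC00641 peak shared at least 1 bp with it, and otherwise kept. A ΔLINC00641 peak without such a partner in NC was called new.

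H3K27me3 is laid down by Polycomb repressive complex 2 (PRC2), whose catalytic subunit is EZH2, and is read by CBX proteins of PRC1. It covers broad domains over silent developmental genes, over long silent neuronal genes in non-neuronal cells, and over the inactive X chromosome. Long noncoding RNAs have been studied as partners of PRC2. The mapping asked whether H3K27me3 changed throughout the genome or at particular places when LINC00641 was depleted.

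The header of the LINC00641 list names ASO2 and that of the control list XNC. From these names they were taken to be LINC00641-ASO-2 and ASOXNC23 of the study's oligonucleotide list, a match that rests on the names alone. Both sequences are shown because the ASOs define the groups. The LINC00641 ASO matched the genome exactly at 1 place, chr14:21668698-21668717 (hg19), inside an exon that 2 annotated LINC00641 transcripts share. The gene lies on the minus strand and the ASO reads as the plus strand, which makes it antisense to the transcript. The control ASO had 0 exact matches on chromosomes 1 to 22, X and Y.
LINC00641-ASO-2: gatagtggtatagtaactgg
ASOXNC23: ttctccgaacgtgtcacgtt
How far the LINC00641 RNA fell was not analysed here. No H3K27me3 peak lay within 5 kb of the LINC00641 gene (chr14:21668238-21675059) in either list, and the nearest was at 130599 bp in NC and 130712 bp in ΔLINC00641.

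Both lists had a similar depth, estimated at 39.1 M fragments (M, 1e6) in NC and 38.1 M in ΔLINC00641. A median NC summit was covered by 18 fragments and a median ΔLINC00641 summit by 19, so a single weak peak was imprecise. Of all NC peaks 46.8% were lost, and of all ΔLINC00641 peaks 35.5% were new. These are the background shares for single peaks, and promoters have their own, given below. Shares are given with Wilson 95% intervals where stated, and fragments with exact Poisson 95% intervals. Both cover counting error only, and peaks close together are not independent.

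Lost peaks were the weak, narrow and AT-rich part of the NC list. On chromosomes 1 to 22 and X, 47844 lost peaks had a median width of 403 bp, 16 fragments at the summit and a GC content of 42.9%. The 54554 kept peaks had 711 bp, 20 fragments and 45.7%. New ΔLINC00641 peaks were as narrow as lost ones, with a median of 390 bp and 17 fragments, but not AT-rich, with a median GC content of 46.5% against 46.4% in ΔLINC00641 peaks found in NC. Lost and new peaks thus differed from kept ones alike in size and differed from each other in base composition.

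H3K9me3, the mark of constitutive heterochromatin, was called in NC cells from separate libraries. An H3K9me3 peak of NC overlapped 6.33% of lost peaks (6.11 to 6.55%) and 12.4% of kept ones (12.2 to 12.7%). Among ΔLINC00641 peaks it overlapped 7.58% of new ones and 12.5% of those found in NC. The kept peaks are also wider, and the part of width in this contrast was not tested.

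The loss was graded by GC content. In the lowest of 5 GC groups, below 40.6% GC, 64.8% of NC peaks were lost (64.2 to 65.4%) and 4864 of 12162 ΔLINC00641 peaks were new (39.1 to 40.9%). In the highest group, above 50.5% GC, 33.4% were lost (32.7 to 34.2%) and 38.0% were new (37.3 to 38.7%). The 3 groups in between had 48.3, 41.5 and 37.6% lost and 34.3, 32.7 and 33.5% new. Loss fell steadily with GC content, whereas the share of new peaks was highest at both ends.

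Since weak peaks are lost more readily, lost and new shares were also compared at equal peak strength, as the mean difference over 20 bins of the −log10 q-value that were common to both lists. The excess of lost over new peaks was 21.0 percentage points (SE 4.63 over chromosomes) in the lowest GC group and -8.25 (SE 3.49) in the highest. The groups in between had 12.2 (SE 4.77), 6.92 (SE 4.14) and 1.44 (SE 3.65). The sign turned in the GC-rich group, where peaks of equal strength lacked a partner more often in ΔLINC00641 than in NC. Among peaks whose −log10 q reached 5 in their own list, 33.5% of the 4625 NC peaks in the lowest GC group were lost and 13.8% of the 1956 ΔLINC00641 peaks were new. In the highest group the shares were 15.6% of 5497 and 18.4% of 7989. Each list was called against its own input, and a difference in GC bias between libraries cannot be told apart from a change of the mark that follows base composition.

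**Figure D1:**
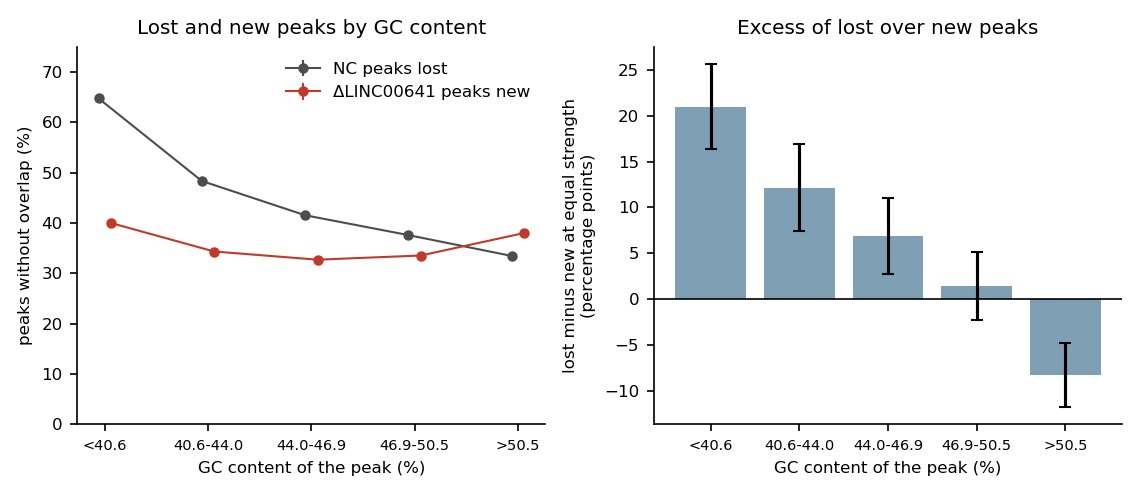
Left, share of NC peaks lost (grey) and of ΔLINC00641 peaks new (red) in 5 equal groups of GC content, in percent, with Wilson 95% intervals that are mostly smaller than the points. Right, lost minus new share at equal peak strength in percentage points, with standard errors over chromosomes, which fell from 21.0 in the most AT-rich group to -8.25 in the most GC-rich group.

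Isolated peaks were lost more often than clustered ones of the same strength and GC content. For this and all later comparisons, a matched share was computed, which is the share lost (or new) among all peaks of the same list in the same strength bin and GC group. It is a description and not a test. Of NC peaks with another NC peak within 1 kb, 36.4% were lost against a matched 44.0%. Of those whose nearest neighbour was 5 to 20 kb away, 72.0% were lost against a matched 51.9%, and at 20 to 100 kb 77.7% against 51.4%. New peaks showed the same gradient, from 25.1% (matched 32.4%) within 1 kb to 68.3% (matched 43.8%) at 20 to 100 kb. Peaks that stood alone were found in the other list less often in either direction. The matched shares below do not account for this distance.

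The position of the summit relative to genes was examined next. At protein-coding promoters, 1 kb to each side of the annotated 5′ end, ΔLINC00641 had 1.11 times the NC number of summits. In protein-coding gene bodies it had 0.867 times, in lncRNA gene bodies 0.794 times and outside these genes 0.823 times. Promoter peaks were lost in 22.6% of cases, below the matched 29.3%, whereas summits in protein-coding gene bodies were lost in 44.8% (matched 46.1%) and those outside genes in 48.0% (matched 47.4%). At lncRNA promoters 33.8% were lost (matched 39.2%) and the number of summits was 0.993 times that in NC. The fewer peaks of ΔLINC00641 were in gene bodies and between genes, and not at promoters. Promoter peaks were also GC-rich, with an NC median of 53.0% against 44.8% in protein-coding gene bodies and 44.3% outside genes. Over all peaks, ΔLINC00641 had 0.478 times the NC number in the lowest GC group and 1.22 times in the highest. The part of GC content in the numbers by place was not tested.

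Counted by gene, 1584 of 20090 protein-coding promoters overlapped a peak in NC and 1738 in ΔLINC00641. Of these, 1324 were marked in both lists, 260 were lost and 414 were gained. Lost promoters made up 16.4% of those marked in NC, and gained promoters 23.8% of those marked in ΔLINC00641, and gene groups are read against these shares. Both depend on weak peaks. When the peak asked about had to reach a −log10 q of 5, they were 4.85% and 11.0%. A promoter marked in both lists need not carry the same peak, since the strongest peaks of the lists overlapped at 1079 of the 1324. Lost promoter peaks were weak, with a median −log10 q of 3.21, and gained ones reached 3.84, against 6.92 in NC at promoters marked in both. The median GC content was 48.9% at lost promoters and 54.3% at gained ones. At 15 of the 260 lost and 32 of the 414 gained promoters the strongest peak met a peak of the other list just outside the 2 kb window, so that this peak was not particular to a single list.

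The genes with the strongest peak among the lost promoters showed how much rests on such borders. At NOTUM, a secreted carboxylesterase that inactivates WNT proteins, the NC peak (chr17:79917995-79918717) had a fold enrichment of 5.42 over local background from 60 fragments (45.8 to 77.2). The ΔLINC00641 peak there had 5.45 from 65 fragments and ended 25 bp outside the window. These summits were nearly equal, and the NC peak reached only 2 bp into the window. A second NC peak of NOTUM (chr17:79920028-79920338), with a fold of 3.37 from 29 fragments (19.4 to 41.7), lay inside the window and had no ΔLINC00641 peak. SAMD3 (37 fragments in NC, 47 in ΔLINC00641) and the olfactory receptor gene OR52P1 (24 and 14) had a single NC promoter peak each, which met a ΔLINC00641 peak outside the window.

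At the other 9 of the 12 strongest lost promoters the strongest peak had no partner. GREM1, a secreted BMP antagonist, had an NC peak at chr15:33009729-33010020 with a fold enrichment of 5.15 from 24 fragments (15.4 to 35.7), and the nearest ΔLINC00641 peak was 370220 bp away. SOCS3, an inhibitor of cytokine signalling, had 3.46 from 35 fragments (24.4 to 48.7) at chr17:76355567-76355939, 442109 bp from the nearest ΔLINC00641 peak. EPB41L4A, a FERM-domain gene, had 3.76 from 34 fragments (23.6 to 47.5), with 298610 bp to the nearest. These 3 peaks were GC-rich, at 66.1, 70.2 and 69.0%, unlike the bulk of lost peaks. OR10A6, OR13C2, the taste receptor gene TAS2R1, PATE4, HHLA1 and RGMA lay in marked regions instead, with a ΔLINC00641 peak between 55 and 14583 bp away and 22 to 30 fragments in NC. RGMA had a second NC promoter peak of 42 fragments that met a ΔLINC00641 peak. In ΔSETD5-AS1, the other H3K27me3 knockdown of the series, GREM1 had a peak with a fold of 5.15 from 27 fragments, EPB41L4A had 2.51 from 26, and SOCS3 had none.

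Among the strongest gained promoters were border cases too. At BMI1, which encodes a PRC1 RING-finger subunit, the ΔLINC00641 peak (chr10:22610981-22611878) had 5.77 from 59 fragments (44.9 to 76.1), and the NC peak, 323 bp wide and 5 bp outside the window, had 2.69 from 37 (26.1 to 51.0). BMI1 thus carried the mark near the promoter in NC, and the peak was higher and wider in ΔLINC00641. HAP1 (66 fragments against 50) also met an NC peak, 278 bp outside the window. Its ΔLINC00641 peak was higher but narrower, at 1835 bp against 1985 bp. The mucin gene MUC12 had a ΔLINC00641 peak that met an NC peak outside the window (95 fragments against 75). A second ΔLINC00641 promoter peak of MUC12, with 28 fragments (18.6 to 40.5), met no NC peak. In these 3 pairs the fragment intervals of both lists overlapped.

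Over the 382 gained promoters whose strongest peak had no partner, the median GC content was 54.4% and the median distance to the nearest NC peak 8660 bp. Most of the strongest ones were farther away. SEMA7A, a membrane-anchored semaphorin, had a ΔLINC00641 peak at chr15:74724544-74725856 with a fold of 4.38 from 50 fragments (37.1 to 65.9), 132933 bp from the nearest NC peak. The bidirectional SNCB and EIF4E1B promoters shared a peak at chr5:176056895-176057276 with a fold of 3.82 from 55 fragments (41.4 to 71.6), at 136724 bp. BATF3, a dendritic cell transcription factor, had 4.27 from 42 fragments at chr1:212873372-212874036, with 99233 bp to the nearest. The GC content of these 3 peaks was between 65.2 and 70.2%. SAMD14 (49 fragments), MCOLN3 (43) and the homeobox gene CUX2 (49) had NC peaks at 71458, 56067 and 15717 bp, and the olfactory receptor gene OR10G6 (28) at 1503 bp. The CUX2 peak reached only 2 bp into the promoter window. ΔSETD5-AS1 had a peak at the promoters of all these genes except CUX2, with folds between 1.82 and 3.94.

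Windows of 201 bp around summits are printed on the plus strand of hg19 as examples of the sequence under peaks found in a single list. Capitals mark CpG dinucleotides. The rule that picked them was set after the values had been seen, and they are no support for the gradient with GC content. Among the promoters named above, they are the first 3 per direction that had no partner in the other list and no annotated exon in the window. Of the lost promoters checked, a single one met this. HHLA1 was left out before its exons were checked, so whether it would have met this is not known. From the 2 genes with the largest fall of base pairs under peaks and from HS6ST2, the gene with the largest rise, described below, the strongest peak without a partner and without an exon was taken. GREM1, SOCS3 and EPB41L4A, the GC-rich lost promoters, are not among them because an exon lies in the window. The lost window at OR10A6 (chr11:7953620-7953820) held 3 CpGs at a GC content of 50.8%, and the gained ones at CUX2 (chr12:111473082-111473282), SEMA7A (chr15:74725025-74725225) and MCOLN3 (chr1:85513574-85513774) held 13 each at 65.2, 67.2 and 72.6%. The summits at CUX2 and SEMA7A lie 1213 and 1174 bp from the annotated 5′ end, outside the promoter window that their peaks reach into. In the gene bodies, the lost windows in RBFOX1 (chr16:5933554-5933754) and IL1RAPL2 (chrX:104561308-104561508) held 1 and 0 CpGs at 41.3 and 38.8%. The gained window in HS6ST2 (chrX:131873121-131873321) held 6 at 46.3%.
OR10A6, lost: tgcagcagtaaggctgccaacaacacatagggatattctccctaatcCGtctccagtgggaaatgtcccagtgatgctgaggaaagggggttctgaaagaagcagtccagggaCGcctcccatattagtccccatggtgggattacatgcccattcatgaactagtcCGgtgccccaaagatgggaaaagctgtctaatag
CUX2, gained: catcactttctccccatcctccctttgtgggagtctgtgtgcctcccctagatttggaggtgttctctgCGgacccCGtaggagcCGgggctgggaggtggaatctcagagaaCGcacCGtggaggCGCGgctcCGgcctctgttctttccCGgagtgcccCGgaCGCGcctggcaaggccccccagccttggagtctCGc
SEMA7A, gained: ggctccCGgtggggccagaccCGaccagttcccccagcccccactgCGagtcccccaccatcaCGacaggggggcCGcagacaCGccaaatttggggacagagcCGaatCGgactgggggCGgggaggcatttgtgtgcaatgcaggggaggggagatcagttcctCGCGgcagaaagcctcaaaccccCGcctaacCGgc
MCOLN3, gained: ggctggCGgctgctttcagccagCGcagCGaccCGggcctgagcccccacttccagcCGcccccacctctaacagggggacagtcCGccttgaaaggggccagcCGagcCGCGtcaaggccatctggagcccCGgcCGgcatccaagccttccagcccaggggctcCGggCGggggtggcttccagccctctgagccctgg
RBFOX1 gene body, lost: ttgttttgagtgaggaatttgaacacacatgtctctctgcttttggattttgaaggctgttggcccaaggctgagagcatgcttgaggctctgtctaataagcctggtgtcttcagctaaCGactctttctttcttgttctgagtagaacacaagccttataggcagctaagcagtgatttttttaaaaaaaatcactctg
IL1RAPL2 gene body, lost: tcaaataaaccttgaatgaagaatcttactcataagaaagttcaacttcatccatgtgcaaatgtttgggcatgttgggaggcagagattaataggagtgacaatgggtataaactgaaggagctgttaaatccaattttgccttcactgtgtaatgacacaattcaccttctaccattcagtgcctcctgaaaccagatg
HS6ST2 gene body, gained: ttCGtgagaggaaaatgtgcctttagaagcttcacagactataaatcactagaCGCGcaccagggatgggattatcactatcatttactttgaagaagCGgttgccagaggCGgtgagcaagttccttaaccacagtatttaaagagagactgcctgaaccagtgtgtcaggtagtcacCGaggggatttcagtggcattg

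Gene groups differed in how many promoters changed. Neurotransmitter receptor genes (GRIA, GABR and related families) had a peak in both lists at 43 of 101 promoters, with 3 lost and 1 gained. Potassium channel genes had 32 in both, 0 lost and 3 gained of 95. Their lost shares, 6.52% of 46 marked promoters (2.24 to 17.5%) and 0 of 32, which allows up to 10.7% by the Wilson interval, were below the background of 16.4%. Their promoter peaks were strong: 8.33% and 2.22% of them were lost, and peaks of that strength and GC content were lost in 19.9 and 16.9% of cases. GRIA3 (51 fragments in NC, 58 in ΔLINC00641), KCNK10 (62 and 74) and KCNMA1 (59 and 70) had overlapping peaks in both lists. The fold was lower in ΔLINC00641 at GRIA3 (8.81 and 6.29) and KCNK10 (8.33 and 6.93) and higher at KCNMA1 (5.33 and 6.97). The GRIA3 peak was 12728 bp wide in NC and 5133 bp in ΔLINC00641. At GRIK3 the strongest promoter peaks of the lists did not overlap. Their folds were 7.39 from 61 fragments in NC and 7.86 from 64 in ΔLINC00641. The ΔLINC00641 peak that met the strongest NC peak had a fold of 4.54. CHRNA3 and HTR1F, a nicotinic and a serotonin receptor gene, were among those lost, from peaks of 26 and 21 fragments. Over the gene bodies, base pairs under peaks fell to 0.728 times in the receptor genes and 0.866 times in the channel genes. Over all protein-coding genes they fell to 0.864 times.

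Developmental regulators, the classical Polycomb targets, were lost and gained at shares near those of all promoters, 16.4 and 23.8%, or too few to read. Homeobox genes outside the HOX clusters had 17 in both, 2 lost (DBX1, IRX4) and 5 gained (among them EMX1, LHX1 and EVX1) of 117. SOX genes had 4 in both, and T-box and GATA genes 2, with 0 lost and 0 gained in each. PAX genes had 2 in both and gained PAX6. Forkhead genes had 4 in both, lost FOXI3 and FOXO6, which is 33.3% of 6 (9.68 to 70.0%), and gained FOXR2, whose peak met an NC peak outside the window. No HOX promoter (0 of 39) had a peak in either list, so the HOX clusters give no information on loss. The ligands of the WNT, FGF, BMP and hedgehog families had 15 in both, 3 lost (WNT4, WNT11, WNT1, with 21 to 25 fragments) and 4 gained (WNT5B, BMP7, FGF20, GDF7, with 24 to 37). SHH (80 and 102 fragments) and WNT7A (62 and 75) had strong peaks in both lists.

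Neurogenic and myogenic bHLH genes had losses and no gains. Of their 11 promoters marked in NC 4 were lost, which is 36.4% (15.2 to 64.6%), and 0 were gained. The lost ones were OLIG3 (23 fragments), ATOH8 (22, with a ΔLINC00641 peak just outside the window), MYOD1 (23), the muscle master regulator, and BHLHE23 (18). OLIG3 and MYOD1 had a ΔLINC00641 peak 1575 and 1850 bp away. NEUROD1 (57 and 63 fragments) and NEUROG3 (59 and 71), which drive neuronal or endocrine differentiation, kept theirs. The interval includes the background share of 16.4%.

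Promoters of tandem gene families turned over in both directions. Olfactory receptor genes had a peak in both lists at 57 of 414 promoters, with 43 lost and 32 gained. Their lost share was 43.0% (33.7 to 52.8%) and their gained share 36.0% (26.8 to 46.3%), above the 16.4 and 23.8% of all promoters. Counted by peak, 51.6% of their promoter peaks were lost against a matched 46.6%, and 47.7% were new against 39.8%. Keratin and keratin-associated genes had 9 in both, 11 lost (KRT1 with 23 fragments, KRT28 with 27) and 10 gained (KRTAP13-4 with 21). C2H2 zinc finger genes had 6 in both, 7 lost and 7 gained of 508, so few of them were marked at all. Their promoter peaks were lost in 52.9% of cases against a matched 34.8%. Most of these peaks had under 30 fragments, and near-identical copies within these families make the assignment of reads uncertain. Over the gene bodies, base pairs under peaks fell to 0.694 times in olfactory receptor, 0.759 in keratin and 0.804 in zinc finger genes. Over all protein-coding genes they fell to 0.864 times.

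The clustered protocadherins, adhesion genes in 3 tandem arrays on chromosome 5, lost most of what they had over their bodies. Within 5 kb of the 53 genes 29 NC peaks covered 14.8 kb, and 11 ΔLINC00641 peaks covered 4.50 kb. Of the NC peaks 24 (82.8%) were lost against a matched 51.6%, and 6 of the 11 were new. PCDHGA5 (21 fragments), PCDHGA7 (20) and PCDHB6 (14) lost the promoter peak, PCDHB14 (15) and PCDHA9 (13) gained one, and PCDHB1, PCDHAC1 and PCDHGB3 had one in both lists. The coverage was thin in both groups. Zinc finger genes on chromosome 19 had 46 NC peaks and 25 in ΔLINC00641, with 82.6% lost (matched 41.5%) and 68.0% new (matched 45.0%). The matched shares of protocadherin and zinc finger peaks do not account for the distance between peaks. Over all NC peaks, those 5 to 20 kb from the next were lost in 72.0% of cases against a matched 51.9%. How isolated the peaks of these genes were was not examined.

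**Figure D2:**
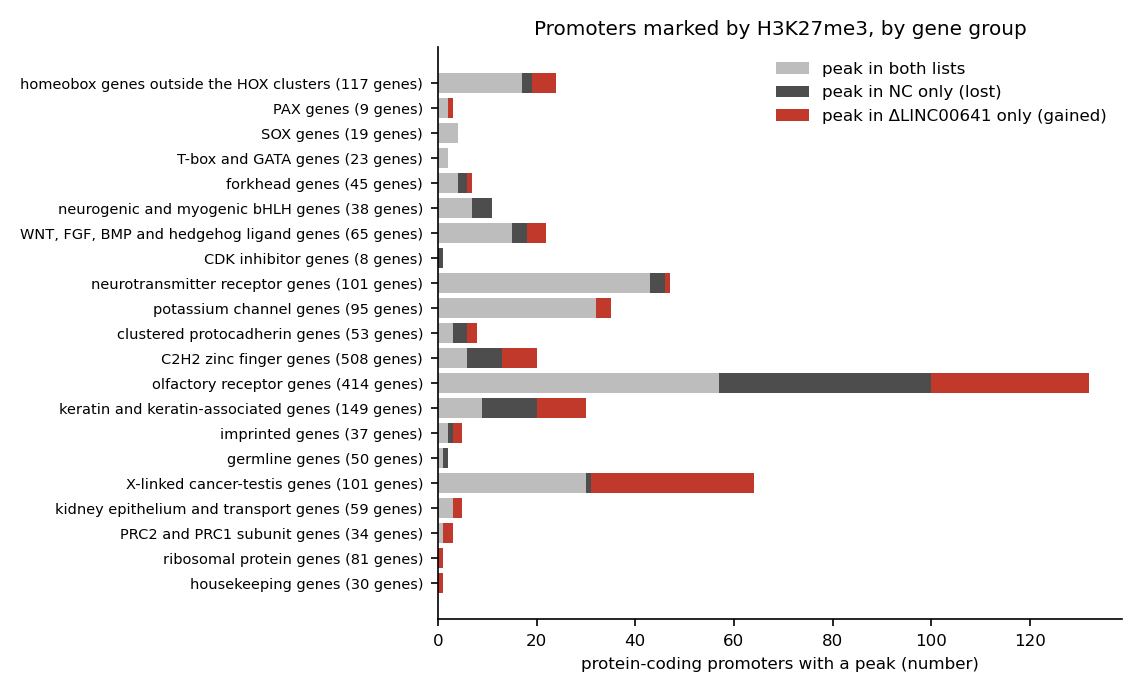
Number of protein-coding promoters with an H3K27me3 peak in both lists (light grey), in NC only (dark grey) and in ΔLINC00641 only (red), by gene group, with the number of genes of each group in brackets. Neurotransmitter receptor genes mostly had a peak in both lists (43 promoters), olfactory receptor genes changed in both directions (43 lost, 32 gained) and X-linked cancer-testis genes were mostly gained (33 against 1 lost).

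X-linked cancer-testis genes, which are normally expressed in germ cells and silent in other tissues, had mostly gains. Of 101 genes, 31 were marked in NC and 63 in ΔLINC00641, with 30 in both, 1 lost (SPANXN5) and 33 gained. The gained share was 52.4% (40.3 to 64.2%), against 23.8% over all genes and 32.4% over genes on X. By peak, 56.9% of their promoter peaks were new against a matched 34.7%, and 12.2% were lost against 33.4%. Promoter peaks of all genes on X departed in the same directions, with 37.7% new (matched 30.6%) and 18.9% lost (matched 34.7%). The gains were 10 of 14 CT47, 6 of 17 GAGE, 4 of 12 MAGEA, 4 of 6 PAGE, 3 of 11 MAGEB, 3 of 9 CT45, 2 of 3 CTAG and 1 of 8 SSX genes, whereas 9 of 10 SPANX and 3 of 3 MAGEC genes had a peak in both lists. The 33 gained promoters had 32 distinct peaks with 15 to 133 fragments. GAGE2A (133 fragments) and GAGE12I (109) lay where the local background was 16.5 and 9.94 times the genome-wide level. CT47, GAGE and CT45 are arrays of near-identical copies, so the gains among them do not count independent genes and the copy that a read came from is uncertain. ΔSETD5-AS1 had a peak at 19 of these 33 promoters, and at 182 of the 414 gained promoters in all.

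Of all protein-coding promoters 7.88% were marked in NC and 8.65% in ΔLINC00641, and several groups had few members to compare. The lists do not measure expression, so the kidney origin of the line could not be checked in them. Kidney epithelium and transport genes were marked at 3 of 59 promoters in NC and 5 in ΔLINC00641 (gained LHX1 and TRPV5). Ribosomal protein genes had 0 of 81 in NC and 1 in ΔLINC00641 (RPL10), and housekeeping genes 0 of 30 and 1 (PGK1). Both genes lie on X. Of 27 genes known to escape X inactivation 0 had a promoter peak in either list. PRC2 and PRC1 subunit genes had 1 in both (CBX8), and BMI1 was among the gained ones. Among CDK inhibitor genes CDKN1C, which is imprinted, lost a peak of 25 fragments with a fold of 2.08, and imprinted genes had 2 in both, 1 lost and 2 gained (GNAS and MAGEL2). With at most 5 marked promoters a group, these counts cannot be read against the 16.4% lost and 23.8% gained over all promoters. Germline genes had 1 in both and 1 lost.

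At promoters marked in both lists, 866 pairs of peaks met a single partner each, and their fold enrichment was set side by side. Each pair started from the strongest NC peak of the promoter. As log2 of ΔLINC00641 over NC, the median ratio was 0.09 (SD of 0.13 between chromosomes), 0.10 on autosomes and 0.05 on X. The SD describes how chromosomes differ and is not the error of the overall median. The fold was lower in ΔLINC00641 at 359 of the 866 pairs. In 42 pairs, 4.85%, the fold was at least 1.5 times lower in ΔLINC00641, and in 89 pairs, 10.3%, at least 1.5 times higher. Fold enrichment divides the fragments at the summit by the local background, which comes from the input, so pairs picked for a low or high fold tend by construction to have a high or low background. The background was higher in ΔLINC00641 at 41 of the 42 pairs with a lower fold, with a median log2 ratio of 0.66, and at 8 of the 89 pairs with a higher fold, with a median of -0.30, compared with 563 of all 866 pairs. Fragments relative to the genome-wide level were higher in ΔLINC00641 at 10 of the 42 and at 87 of the 89 pairs, compared with 676 of all 866. Over all pairs the median log2 ratio of fragments was 0.25 and that of the background 0.15.

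The named extremes are given with their background. At RELN, which encodes the extracellular guidance protein reelin, the fold was 10.3 in NC from 49 fragments (36.3 to 64.8) and 4.72 in ΔLINC00641 from 40 (28.6 to 54.5), while the local background was 1.00 and 2.03 times the genome-wide level. The next largest falls were at PABPC1L2B (41 and 32 fragments), USP17L25 (75 and 64), SLCO3A1 (41 and 42), WSCD2 (41 and 29) and USP17L20 (54 and 49), and USP17L genes are near-identical copies. At CALCR, the calcitonin receptor gene, the fold was 2.48 from 32 fragments (21.9 to 45.2) in NC and 7.68 from 49 (36.3 to 64.8) in ΔLINC00641, with a background of 3.20 and 1.46. At RFX6, a pancreatic transcription factor, it was 2.27 from 33 fragments (22.7 to 46.3) and 6.55 from 65 (50.2 to 82.9), and the background was again lower in ΔLINC00641. The fragment intervals of both lists overlapped at RELN and CALCR and were separate at RFX6. These genes were picked among 400 pairs for extreme folds, which are computed from the same fragments. Separate intervals at such a gene are therefore no test of a change, and they hold no error between replicates. NTNG2 (38 and 60), XKR4 (35 and 52), PLPPR1 (42 and 58) and TCP11X2 (63 and 95) were the next largest rises. The part of the background in these folds was not tested further.

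**Figure D3:**
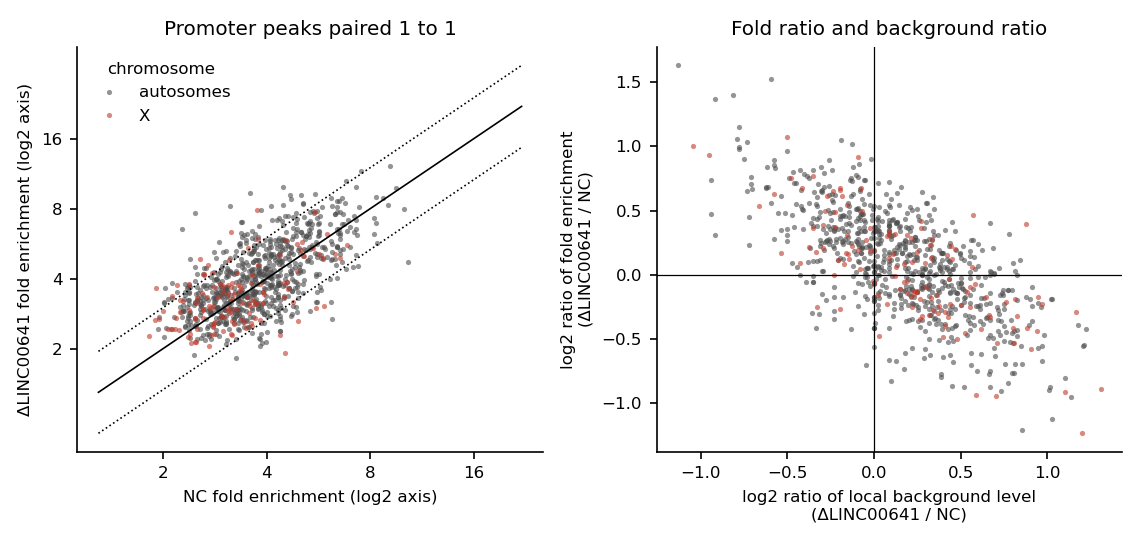
Left, fold enrichment of 866 promoter peaks paired 1 to 1 in NC and ΔLINC00641 on log2 axes, with autosomes in grey, X in red, equality as a solid line and 1.5-fold differences as dotted lines. Right, log2 ratio of fold enrichment against log2 ratio of the local background of the same pairs, where 41 of the 42 pairs with a fold at least 1.5 times lower had the higher background in ΔLINC00641, as did 563 of all pairs.

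The largest falls of coverage in ΔLINC00641 were at long genes, and ranking by base pairs favours genes with much coverage. Base pairs under peaks were summed over each protein-coding gene with 5 kb to each side. The largest fall was at RBFOX1, a neuronal splicing factor gene of chromosome 16, with 859.9 kb under 957 NC peaks and 704.3 kb under 788 ΔLINC00641 peaks. It was followed by IL1RAPL2 on X (694.8 and 556.2 kb), DPP10 (274.1 and 157.6 kb), DPP6 (645.7 and 551.2 kb) and SGCD (252.5 and 167.1 kb). Coverage at TENM1, a teneurin adhesion gene, fell by 83.7 kb, and coverage at NRXN3, a neurexin gene, fell by 70.0 kb, with TENM2, CSMD1 and ASIC2 in between. In relative terms DPP10 and SGCD fell most, to 0.575 and 0.662 times, and DPP6 least, to 0.854 times. All autosomes together fell to 0.794 times and X to 0.905 times. RBFOX1 and TENM2 (0.819), ASIC2 (0.828) and DPP6 fell less than the autosomal total. DPP10, SGCD, CSMD1 (0.735) and NRXN3 (0.744) fell more. IL1RAPL2 (0.8) and TENM1 (0.773) fell more than X as a whole.

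In 8 of these 10 genes the share of lost peaks was below the matched share. At IL1RAPL2, where the peaks had a median GC content of 38.8%, 18.7% of NC peaks were lost, against a matched 44.6%. At DPP6 21.3% were lost (matched 31.9%) and at TENM1 29.5% (matched 49.0%). The exceptions were DPP10, with 58.3% lost against a matched 53.1%, and CSMD1, with 48.7% against 46.5%. The fall in base pairs at IL1RAPL2 came with 543 peaks in ΔLINC00641 against 555 in NC, so the peaks were narrower rather than fewer.

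Gains over gene bodies were smaller, and 6 of the 10 largest were on X. HS6ST2, a heparan sulfate sulfotransferase gene, went from 52.5 to 78.1 kb, FRMPD3 from 60.3 to 79.6 kb, BCORL1, a transcriptional corepressor gene, from 14.7 to 29.9 kb, HDAC8 from 20.8 to 34.5 kb, COL4A6 from 41.9 to 54.9 kb, and the unnamed gene ENSG00000285547 gained 14.6 kb. The last of these overlaps HDAC8, so both count largely the same peaks. The autosomal ones were CDH4 (37.7 to 57.0 kb), KIRREL3 (258.2 to 276.9 kb), PTPRN2 (134.3 to 150.9 kb) and RIMBP2 (76.7 to 92.9 kb). At HS6ST2 53.6% of the ΔLINC00641 peaks were new against a matched 36.2%, and at HDAC8 67.7% against 39.2%. KIRREL3 gained by wider peaks, with 13.9% new against 27.3% matched.

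Genes with at least 20 kb under NC peaks summarised this. On autosomes 154 of 176 such genes had fewer base pairs under peaks in ΔLINC00641, with a median ratio of 0.764. On X 45 of 75 had fewer, with a median of 0.926. Choosing by NC favours falls, so the choice was also made in ΔLINC00641. Of 147 autosomal genes with at least 20 kb there, 24 had fewer in NC, and of 81 X-linked genes 38. Coverage fell on autosomes under either choice, and on X about as many genes went one way as the other. Summed over the chromosomes, the mark covered 55.9 Mb of the autosomes in NC and 44.4 Mb in ΔLINC00641, a ratio of 0.794, and 21.4 and 19.4 Mb of X, a ratio of 0.905. Single autosomes ranged from 0.637 on chromosome 21 to 0.956 on chromosome 22, so X lay within their range.

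**Figure D4:**
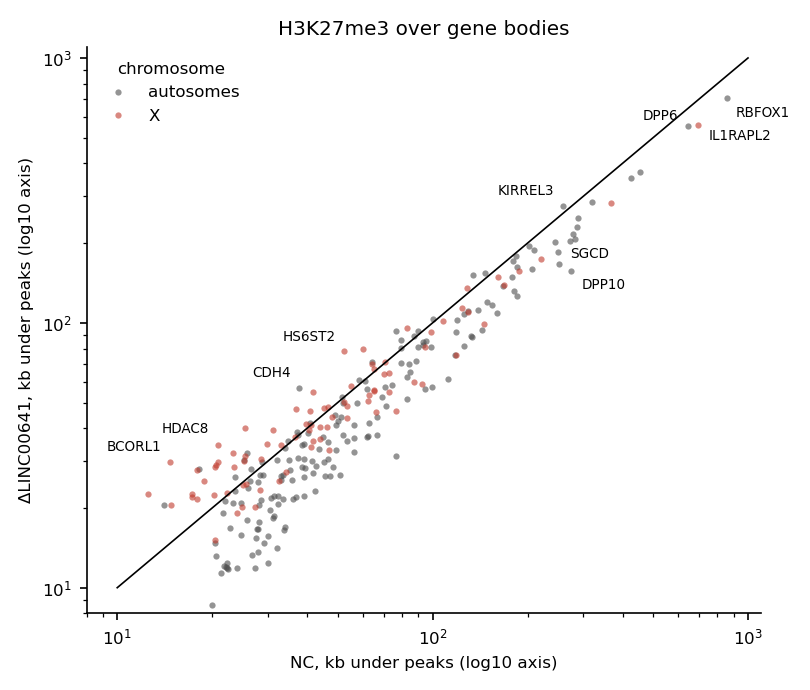
Kilobases under H3K27me3 peaks over each protein-coding gene with 5 kb to each side, in NC and ΔLINC00641, on log10 axes, for genes with at least 20 kb in a list (autosomes grey, X red, line of equality). Autosomal genes lie mostly below the line, RBFOX1 at 859.9 and 704.3 kb, while X-linked genes lie on both sides, HDAC8 at 20.8 and 34.5 kb.

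For single peaks, X was set beside the pooled autosomes. On X 42.5% of NC peaks were lost (42.0 to 43.1%, matched 49.2%) and 38.0% of ΔLINC00641 peaks were new (37.4 to 38.6%, matched 34.8%). On autosomes 48.4% were lost (48.0 to 48.7%, matched 45.8%) and 34.3% were new (34.0 to 34.7%, matched 35.8%). The number of marked promoters on X rose from 280 to 364 of 868, with 34 lost and 118 gained, and on autosomes from 1304 to 1374 of 19222, with 226 lost and 296 gained. The gradient with GC content was present on both. In the lowest GC group the excess of lost over new peaks was 25.6 points on autosomes and 14.9 on X, and in the highest -4.87 and -19.6. With the same GC groups, ΔLINC00641 had 0.381 and 0.607 times the NC peaks in the lowest group and 1.17 and 1.43 times in the highest. Only 1 list per group exists, so whether X responded differently was not tested.

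Overlap varied among autosomes. On chromosome 13, with 313 NC peaks, 73.5% were lost (matched 50.1%) and 61.7% of the ΔLINC00641 peaks were new (matched 39.5%). Chromosome 21 had 62.2% lost (matched 43.9%), chromosome 6 64.9% (matched 50.2%) and chromosome 18 62.7% (matched 50.4%). Chromosomes 22 and 19, with 1391 and 1821 NC peaks, had 36.8% (matched 39.9%) and 37.1% lost (matched 38.1%). Chromosome 5, with 11364 NC peaks, had 46.0% lost (matched 46.8%) and 27.2% new (matched 34.6%). These matched shares do not account for the distance between peaks, and its part here was not tested.

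**Figure D5:**
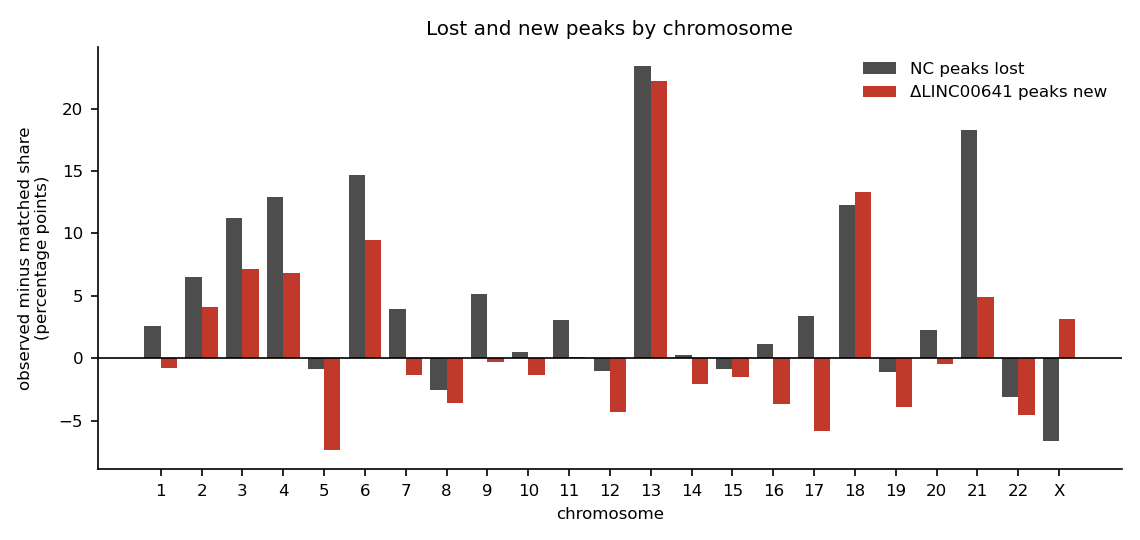
Observed minus matched share of lost NC peaks (grey) and of new ΔLINC00641 peaks (red) for each chromosome, in percentage points. On chromosome 13 both exceeded the matched share, by 23.4 and 22.2 points, and on X the lost share was 6.65 points lower and the new share 3.18 points higher.

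At the scale of 1 Mb, 372 of 630 windows with at least 30 NC peaks lost more than their matched share. The window furthest below the matched kept share was chrX:43000001-44000000, which holds the monoamine oxidase genes MAOA and MAOB and NDP. There 29 of 32 NC peaks were lost and 39 of 42 ΔLINC00641 peaks were new. At chrX:54000001-55000000 29 of 33 were lost and 35 of 39 were new, so in both windows the positions changed while the numbers did not fall. The protocadherin window chr5:140000001-141000000 (35 of 41 lost, 14 peaks in ΔLINC00641), the gene-free chr16:63000001-64000000 (44 of 51 lost) and chr17:25000001-26000000 (24 of 33 lost) had fewer peaks instead. The windows furthest above were dense, which the matched share does not account for. They held IL1RAPL2 (chrX:104000001-105000000, 93 of 464 lost, and the window before it, 62 of 307), KIRREL3 (chr11:126000001-127000000, 41 of 272), VRK1 and PAPOLA (chr14:97000001-98000000, 27 of 137) and MYC (chr8:128000001-129000000, 69 of 320).

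PGBD5, a domesticated transposase gene, was followed as the locus the study displays. Within 5 kb of it 3 peaks covered 3.40 kb in NC and 3 covered 1.96 kb in ΔLINC00641. The peak just upstream of the start site had 37 fragments at the summit in each list (26.1 to 51.0), with a fold of 3.19 in NC and 3.51 in ΔLINC00641, but was 1603 bp wide in NC and 845 bp in ΔLINC00641. The peak inside the gene had 45 fragments (32.8 to 60.2) and 30 (20.2 to 42.8), and the upstream peak furthest from it 28 (18.6 to 40.5) and 21 (13.0 to 32.1). All 3 intervals of fragments overlapped between the lists, and 3 of 3 peaks were narrower in ΔLINC00641.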

How the data were processed

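H3K27me3 ChIP-seq was performed in HEK293T cells with 3 ChIP and 3 input replicates for NC and for ΔLINC00641, grouped by their titles. Per the study's methods and the submitters' processing notes, reads were trimmed with Cutadapt 3.3, aligned to hg19 with Bowtie2 2.4.2 and deduplicated with GATK, replicates were merged, and MACS2 2.2.7.1 called peaks on each merged ChIP group over its merged input. The fold enrichment at each summit is a ratio that the authors deposited, and the −log10 p-value and −log10 q-value of each peak are also values the authors deposited. Since the authors pooled replicates and each list has its own input, ratios between lists depend on depth, input and GC bias, and no test was made.

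From fold enrichment and p-value the fragments at the summit and the local background were solved for. A whole number of fragments, within 0.01 in −log10 p, was found for 99.998% of NC and 99.997% of ΔLINC00641 peaks. The lowest background was taken as the genome-wide level, 3.85 and 3.78 fragments. The estimated depth took the shortest peak as the fragment length and 2.7 Gb as the effective genome. Genes were those of GENCODE lifted to GRCh37, which has hg19 coordinates, on chromosomes 1 to 22 and X. Strength was binned in 20 groups of −log10 q and GC content in 5 groups, and standard errors left out each chromosome in turn. Matched shares include the peaks described.

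The members and the gene lists were chosen with earlier results of these data known. Named were up to 4 genes per class and list with the largest −log10 q, the 12 strongest lost and 12 strongest gained promoters with a background of at most 5 times the genome-wide level, the 6 largest falls and rises of paired promoter peaks with at least 40 fragments in a list, the 10 largest falls and rises of base pairs over genes, 5 windows at each end, PGBD5 and LINC00641. The zinc finger genes of chromosome 19, the peaks that meet the other list outside the window, the split of paired folds into fragments and background, and the printed windows were chosen after seeing the data. Alternatives changed the −log10 q threshold, the overlap, merging, chromosomes, input-rich peaks, promoter definition and matching. Analyses ran in Python 3.11.15 with pysam 0.24.0, scipy 1.17.1, pandas 2.3.3 and numpy 2.4.6, and the functions were tested on simulated data. Some genes and 1 sequence window that these rules select are not reported here. ASO sequences came from the study's oligonucleotide list.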

Additional observations from a re-analysis of the deposited data

How the results depend on the processing

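No paired analysis was possible because each group's replicates were merged ahead of peak calling, and for the same reason leaving out a replicate was not possible. Of 45 shares, differences and medians recomputed under other settings, 22 stayed inside the reported error or SD and 23 lay outside it. The median fold ratio was judged by its SD between chromosomes, which is not the error of that median. The 4 recomputed ratios of peak numbers have no error and stayed within 1.5 times the reported one. Of the 15 values that can change sign, 0 did.

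The share of NC peaks kept, reported as 53.2%, was 47.8% when a −log10 q of 5 was required of both lists, 77.8% when only NC peaks did, 51.7% on autosomes and 46.8% with an overlap of at least 50% of the shorter peak. The share of ΔLINC00641 peaks that were new, reported as 35.5%, was 49.2%, 15.5%, 34.3% and 42.9% under these 4 settings, and 36.2% with peaks merged within 1 kb. The number of peaks over NC ranged from 0.798 (autosomes) to 0.968 (−log10 q of at least 5).

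The share of promoters lost, reported as 16.4%, was 4.85% where only NC peaks had to reach a −log10 q of 5, 20.6% with the overlap of 50% and 14.2% with any transcript start. The share gained, reported as 23.8%, was 11.0%, 28.5% and 20.9% under these settings. It was 30.2% with the −log10 q threshold in both lists, 21.5% on autosomes, 19.3% for promoters of 2.5 kb to each side, 26.3% for 500 bp, and 21.7% when a peak that met the other list outside the window counted as kept, a setting added once these values were known.

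The excess of lost over new peaks in the lowest GC group was 11.5 points (SE 7.37) at a −log10 q of 5 or more. In the highest group it was -18.3 (SE 2.32) with that threshold and -13.3 (SE 3.325) with 10 GC groups. Its sign was the same under all 6 settings in both groups.

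The cause of these shifts was not tested. The depth limits single peaks, with a median of 18 or 19 fragments at a summit.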
